A study of Drosophila melanogaster with 2 samples.

Results

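Of the 8399 peaks in the reproducible (IDR) peak list of CG10631-GFP, 235 had their summit at the start of a noncoding RNA gene and away from protein-coding starts, 2.80% of the list (Wilson 95% interval 2.47 to 3.17%). A peak was kept when its summit, the position of highest signal, lay within 500 bp of a transcript start of a gene annotated as ncRNA and no protein-coding transcript start lay within 500 bp. These 235 peaks are called ncRNA start-site peaks below, and they were set beside the 2371 peaks at protein-coding starts, of which 99 lay at both kinds of start, and the 5793 peaks at neither. The choice used positions alone, not signal.

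Chromatin immunoprecipitation with sequencing (ChIP-seq) was done on white prepupae, whole Drosophila melanogaster animals in the short motionless stage that opens metamorphosis. The animals were of 1 transgenic line, CG10631-GFP, which carries an insertion that stably expresses CG10631 with GFP (eGFP in the sample descriptions) joined to its C terminus, and an anti-GFP antibody was used on their sonicated chromatin. There is 1 group, with biological replicates 2 and 3 from separate biosamples; sex was not collected and age in hours is not given. Whole animals mix all tissues, so a weak peak in many cells and a strong peak in few cells cannot be told apart, and the tagged protein is expressed from a transgene. No untagged or other control data were analysed here, and no condition is compared, so the intervals below cover counting error over peaks or genes only. Peaks are not replicates of an animal.

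Noncoding RNA genes give rise to transcripts that are not translated. Long ncRNAs and antisense RNAs are mostly made by RNA polymerase II from promoters like those of mRNA genes, and some of them act as RNAs, such as the roX RNAs of dosage compensation, while others serve mainly as precursors from which microRNAs or small nucleolar RNAs (snoRNAs) are cut. The annotated start of such a gene is often less well mapped than that of a protein-coding gene, and many such starts lie in introns or between genes, where enhancers are also found. A ChIP-seq peak at such a start shows where the tagged protein was recovered and does not tell whether the RNA was being made.

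The sequences under the strongest summits are shown first, because the base composition described further on can be seen in them. They are the 4 strongest ncRNA start-site peaks, each as the dm6 reference from 50 bases before to 50 bases after the summit, read on the plus strand. CAGTGC and the TATA box letters TATAAA, on either strand, are in capitals.
CR44619 (chrX:12752312-12752412, plus strand): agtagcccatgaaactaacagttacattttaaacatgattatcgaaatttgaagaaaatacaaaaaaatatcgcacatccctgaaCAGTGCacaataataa
CR31044 (chr3R:29214389-29214489, plus strand): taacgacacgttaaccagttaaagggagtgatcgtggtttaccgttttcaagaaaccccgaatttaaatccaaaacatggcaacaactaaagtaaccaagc
CR46102 (chr3R:25738149-25738249, plus strand): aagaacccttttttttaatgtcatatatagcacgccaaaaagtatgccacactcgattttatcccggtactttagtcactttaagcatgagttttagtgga
CR46036 (chr3R:17700540-17700640, plus strand): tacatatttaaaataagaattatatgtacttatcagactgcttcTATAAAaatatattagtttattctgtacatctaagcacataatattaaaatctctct

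The stretch at CR44619 was 29.7% G or C and held a CAGTGC near its 3′ end, and the stretch at CR46036 was 20.8% G or C and held TATAAA. Neither hexamer lay within 50 bp of the summits at CR31044 and CR46102, whose stretches were 39.6% and 35.6% G or C.

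The ncRNA start-site peaks spanned most of the strength range of the list. Their signal in the IDR list, the peak strength given by the authors, ran between 100.7 and 2277 with a median of 213 (quartiles 137 and 384), against medians of 227 at protein-coding starts and 179 at neither start. In the replicates' own lists their medians were 109 in replicate 2 and 109 in replicate 3, against 111 and 118 at protein-coding starts and 87.9 and 92.4 at neither start. They were thus close in strength to peaks at protein-coding starts in both replicates and stronger at the median than peaks at neither start. Of the 235, 36 (15.3%, 11.3 to 20.5%) were among the 1000 strongest of the list, against 8.80% of peaks at neither start, a difference of 6.52 percentage points (Newcombe 95% interval 2.40 to 11.7) and against 19.1% of peaks at protein-coding starts (difference -3.83 points, -8.19 to 1.55).

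**Figure D1:**
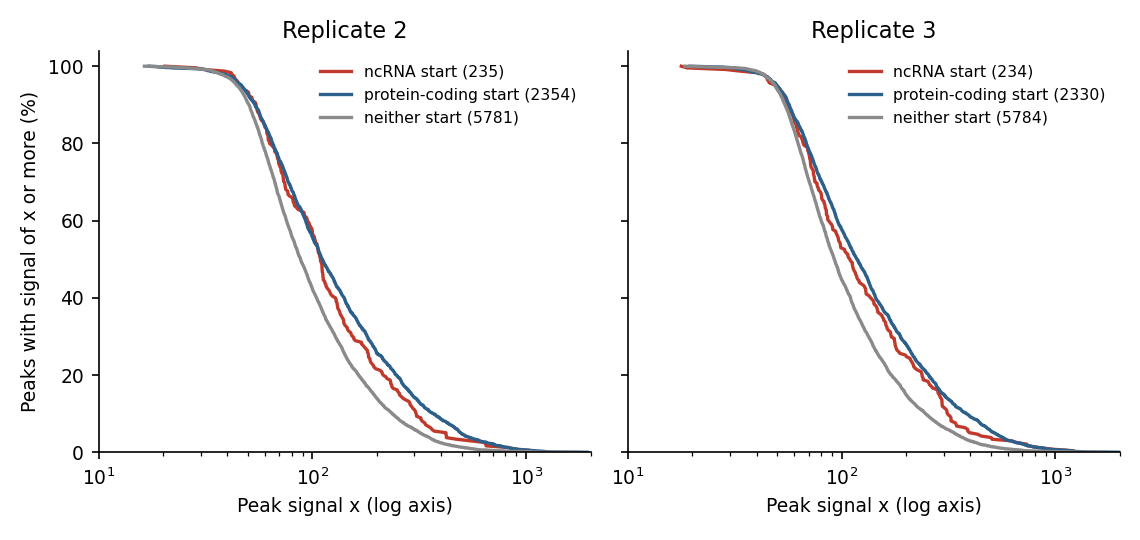
Share of peaks (vertical axis, percent) whose signal in replicate 2 (left) or replicate 3 (right) reached the value on the horizontal log axis, for peaks at ncRNA starts, at protein-coding starts and at neither. In both replicates the line of ncRNA start-site peaks, with a median of 109, runs close to that of protein-coding starts (111 and 118) and to the right of that of the remaining peaks (87.9 and 92.4).

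The nearest ncRNA was a long ncRNA at 85.5% of the 235 peaks, an antisense RNA at 21 of them, a mature microRNA entry at 7, a microRNA precursor at 4 and another small RNA at 2. Median signal was 206 at long ncRNAs and 268 at antisense RNAs, with ranges that overlapped almost completely (100.7 to 2277 and 102 to 982). One ncRNA gene lay within 500 bp of the summit at 214 peaks, and 21 peaks had between 2 and 4. Some peaks overlapped each other: merged, the 235 formed 224 separate regions.

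The strongest ncRNA start-site peak, ranked 16 in the whole list, lay at lncRNA:CR44619 (chrX:12752157-12752572), with a signal of 1076 in replicate 2 and 1208 in replicate 3. Its summit was 495 bp downstream of the start, inside the transcribed span and 6045 bp from the nearest protein-coding start, that of CG4004. The next strongest was at lncRNA:CR31044 (chr3R:29214232-29214612), the primary transcript that holds mir-279 and mir-996, with 896 in replicate 2 and 959 in replicate 3. Its summit was 123 bp upstream of the start. Neither peak differed by over 1.5-fold between the replicates.

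Of the 20 strongest summits, 9 lay in introns of protein-coding genes, with the ncRNA on the other strand at 7 of these, 1 lay in an untranslated exon part and 10 lay outside protein-coding genes. The summit at lncRNA:CR46102 (chr3R:25738008-25738375, IDR-list signal 1639) lay in an intron of the lipophorin receptor gene LpR2. The summits at lncRNA:CR46036 (signal 1394) and lncRNA:CR46035 (signal 867) both lay within osa, 2928 bp apart. This gene encodes a subunit of the Brahma chromatin remodelling complex. The summit at lncRNA:CR44222 (signal 718) lay in kis, which encodes a CHD-family remodeller. That at lncRNA:CR44867 (signal 863) lay in beat-Ib, a gene of the axon guidance family beaten path. At lncRNA:CR45997 (signal 705) the summit lay within mbl, the muscleblind splicing regulator gene, which is on the strand of the ncRNA. At lncRNA:CR34335 (signal 722) it lay within DIP-alpha, also on the same strand. The summit at asRNA:CR46145 (signal 982) lay within FER, a tyrosine kinase gene, 678 bp from a start of that gene. That at lncRNA:CR45325 (signal 654) lay where CG46429 and Sesn overlap. The summit at lncRNA:CR43626 (signal 894) lay in an untranslated exon part of CG43389.

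The 10 remaining of the 20, CR44619 and CR31044 among them, lay outside protein-coding genes. The summit at lncRNA:CR44339 (signal 1379) was 4201 bp from the nearest start of the Polycomb group gene Psc. That at lncRNA:CR45243 (signal 687) was 1485 bp from a start of fng, which encodes the Notch-modifying glycosyltransferase Fringe. At lncRNA:CR45668 (signal 892, with 371 in replicate 2 and 501 in replicate 3) the summit lay 640 bp from a start of the actin gene Act5C. The summit at lncRNA:CR45595 (signal 1311) lay 1212 bp from a start of l(3)neo38. That at lncRNA:CR44676 (signal 1190) lay 8385 bp from a start of CG9300. The rest were lncRNA:CR45541, CR45251 and CR45352 with signals of 649 to 703. The strongest per arm were CR44867 on 2L, CR44339 on 2R, CR44676 on 3L, CR31044 on 3R, CR44619 on X and, far weaker, asRNA:CR44029 on chromosome 4 at 123.

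Most ncRNA start-site peaks were found in both replicates. They come from a list of reproducible peaks, so the choice of list favours this and it is not a separate result. By 1 bp or more, 211 of 235 (89.8%, 85.3 to 93.0%) overlapped one of the 8399 strongest regions of each replicate, against 87.0% over the whole list. All 235 had a region somewhere in the 30000 regions of replicate 2 and 234 in the 30000 of replicate 3. The exception was lncRNA:CR45280, with a signal of 124 in replicate 2. After the median ratio of 0.956 between replicate 2 and replicate 3 was divided out, 31 of 234 (13.2%, 9.49 to 18.2%) differed by more than 1.5-fold, against 11.5% over the whole list, and 16 of the 31 were higher in replicate 2. Both shares are close to those of the whole list.

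**Figure D2:**
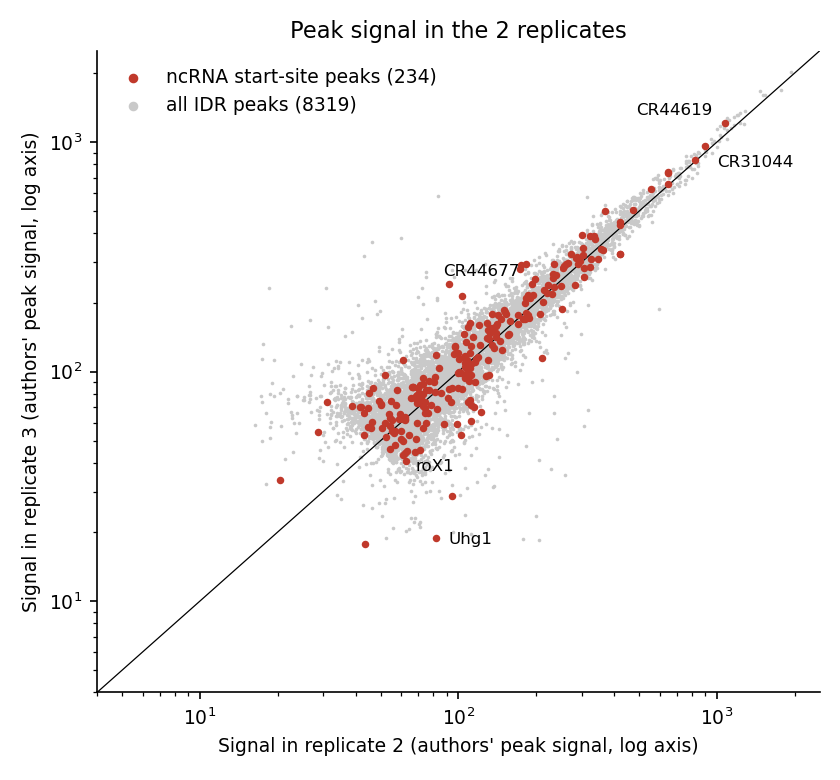
Authors' peak signal in replicate 3 (vertical log axis) against replicate 2 (horizontal log axis) for the 234 ncRNA start-site peaks with a region in both lists, over all 8319 such IDR peaks in grey; the line marks equal signal. Strong peaks such as CR44619 and CR31044 lie near the line, and Uhg1 lies farthest below it among those named. The name CR44677 marks the stronger peak of that gene. Its weaker peak, not named, lies far above the line and takes its replicate 3 value from the region shared with the stronger one.

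The largest differences between replicates were at weak peaks. At Uhg1, a snoRNA host gene, the signal was 81.6 in replicate 2 and 18.9 in replicate 3, a centred log2 ratio of 2.17. One of the peaks of lncRNA:CR43626 (chr3L:3250219-3250414) had 94.7 and 28.8 (log2 1.78) and lncRNA:CR45537 had 43.6 and 17.8 (log2 1.36) in replicates 2 and 3. Higher in replicate 3 was lncRNA:CR46326 (31.0 in replicate 2 and 73.7 in replicate 3, log2 -1.19). The weaker peak of lncRNA:CR44677 (chr3L:19557492-19557649) had 91.6 in replicate 2 and 241 in replicate 3 (log2 -1.33), but that replicate 3 region also served the overlapping stronger peak of the same gene, which had 193 in replicate 2, so its ratio sets different regions side by side. With 2 replicates it cannot be told which value is nearer the mean of such animals. Of the 235, 7 shared their replicate 2 region and 7 their replicate 3 region with another IDR peak, and 4 of the 31 past 1.5-fold were among these. Where no region was shared, 27 of 223 peaks (12.1%) differed by more than 1.5-fold, against 10.8% over the whole list.

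The summits sat less regularly at ncRNA starts than at protein-coding starts. Of the 235 summits, 143 (60.9%, 54.5 to 66.9%) lay upstream of the nearest ncRNA start, against 84.2% of summits at protein-coding starts, a difference of -23.3 points (-29.9 to -17.1). The 300 bp upstream of the start held 41.7% of the ncRNA summits and 65.8% of the protein-coding ones, and the median summit position was -80 bp at ncRNA starts and -145 bp at protein-coding starts, negative being upstream. At ncRNA starts the fullest 100-bp bin was 100 to 200 bp upstream with 39 summits (16.6%), and after a low of 13 summits (5.53%) in each of the bins between 100 and 300 bp downstream the count was 27 (11.5%) at 400 to 500 bp downstream. At protein-coding starts the bin 100 to 200 bp upstream held 30.2% and the bin 400 to 500 bp downstream 2.53%.

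**Figure D3:**
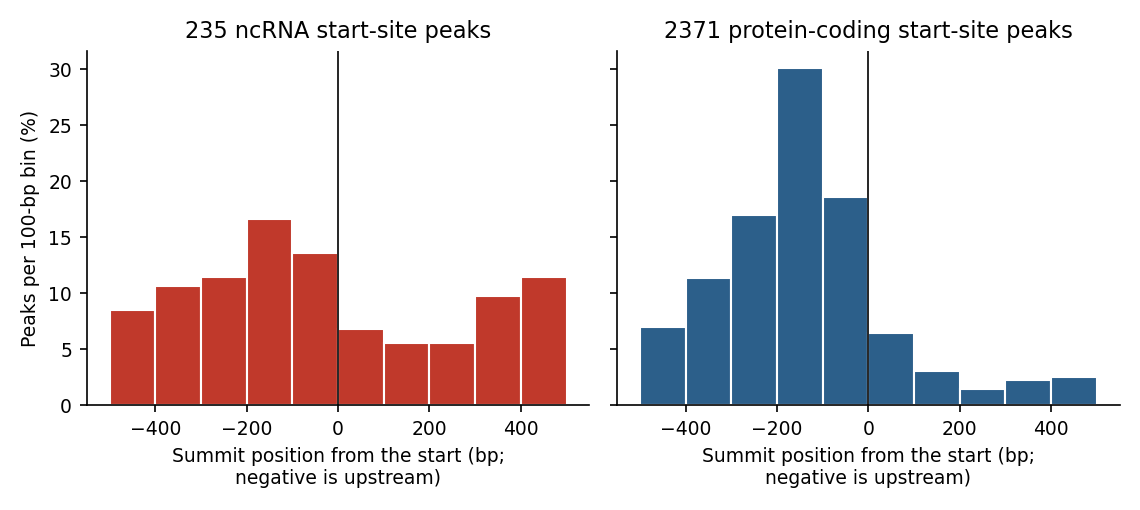
Share of summits (vertical axis, percent of peaks) in 100-bp bins by distance from the nearest ncRNA start (left, 235 peaks) or protein-coding start (right, 2371 peaks), negative being upstream. At ncRNA starts the summits spread over the window with 16.6% in the fullest bin, and at protein-coding starts 30.2% lay in the bin 100 to 200 bp upstream.

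Among the classes, 18 of 21 summits at antisense RNAs (85.7%, 65.4 to 95.02%) lay upstream, and 118 at long ncRNAs (58.7% of those, 51.8 to 65.3%). By strength, 64.6% of the strongest 79 of the 235, 56.4% of the middle 78 and 61.5% of the weakest 78 lay upstream, with intervals that overlap. Upstream and downstream summits had median signals of 213 and 214. Within 250 bp of the start in place of 500 bp, 103 of 147 summits lay upstream, a difference of -14.7 points from protein-coding starts (-22.7 to -7.66), and within 1000 bp about as many lay upstream as downstream (50.8% upstream).

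Relative to protein-coding genes, 168 of the 235 summits (71.5%, 65.4 to 76.9%) lay outside every protein-coding gene, against 55.2% of peaks at protein-coding starts and 32.6% of peaks at neither start. The difference from the peaks at neither start, which also lie over 500 bp from protein-coding starts, was 38.9 points (32.7 to 44.4). The rule ties these summits to ncRNA starts, and 1486 of the 2455 annotated long and antisense ncRNA genes start outside protein-coding genes. How much of the difference comes from this was not tested. Of the 67 summits inside protein-coding genes, 63 lay in introns and 4 in untranslated exon parts, and 0 of 235 lay in coding sequence. The ncRNA ran against the strand of the surrounding gene at 43 of these 67, along it at 23, and had genes on both strands around it at 1. The nearest protein-coding start was 3410 bp away at the median, at 501 to 2000 bp for 79 peaks and over 10000 bp for 45. The X chromosome held 31 of the 235 (13.2%), against 19.2% of peaks at protein-coding starts (difference -6.04 points, -10.1 to -0.883). Of the annotated long and antisense ncRNA genes, 26 of 310 on X (8.39%) and 213 of 2455 overall (8.68%) had such a peak, so the lower share on X was not seen per ncRNA gene.

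Counted by gene, 245 of 3289 annotated ncRNA genes (7.45%, 6.60 to 8.40%) had a start within 500 bp of an ncRNA start-site peak, and 80 more were reached only by peaks that also lay at a protein-coding start. Long ncRNA genes were reached more often than antisense RNA genes, 194 of 1952 (9.94%) and 19 of 503 (3.78%), a difference of 6.16 points (3.76 to 8.11). When peaks at protein-coding starts were counted too, the shares were 12.2% and 10.5% and the difference 1.66 points (-1.64 to 4.49), since 34 antisense genes were reached only that way. Among long and antisense genes, those whose start lay outside protein-coding genes had a peak more often (161 of 1486, 10.8%) than those starting inside one on the opposite strand (38 of 756, 5.03%), a difference of 5.81 points (3.48 to 7.96). With peaks at protein-coding starts counted too, these shares were 13.1% and 10.2% and the difference 2.87 points (0.00752 to 5.54), 39 of the opposite-strand genes being reached only that way. Genes with 2 or more annotated starts had one in 20 of 128 cases (15.6%) and genes with 1 start in 193 of 2327 (8.29%). More starts give more windows in which a summit can fall, and how much of the difference comes from this was not tested. By length of the gene the share was 10.3% (8.22 to 12.9%) under 500 bp and 7.80% (6.54 to 9.29%) between 500 and 2000 bp. At 2000 bp or longer it was 9.25% (6.60 to 12.8%), and the 3 intervals overlap. With peaks at protein-coding starts counted too, these shares were 14.3%, 10.5% and 13.1%.

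**Figure D4:**
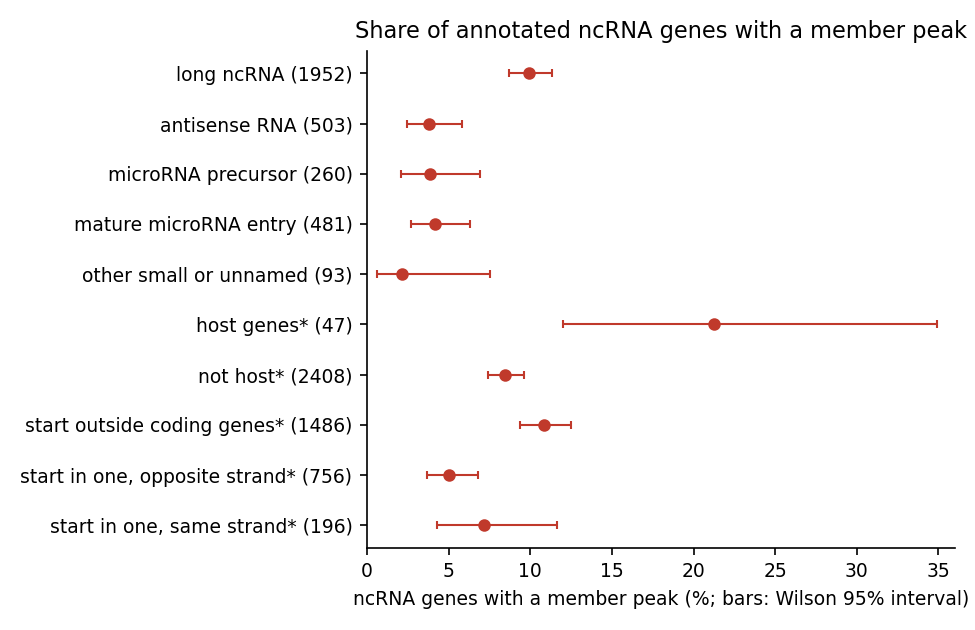
Percent of annotated ncRNA genes (horizontal axis) with an ncRNA start-site peak within 500 bp of a start, by class and, for long and antisense genes (starred), by whether they hold a microRNA or snoRNA gene and by where they start; the number of genes is in brackets and bars are Wilson 95% intervals. Host genes stand at 21.3% with a wide interval, long ncRNA genes at 9.94% and antisense RNA genes at 3.78%.

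Host genes, long or antisense ncRNA genes that hold a microRNA precursor, snoRNA or snRNA gene on their own strand, had a peak in 10 of 47 cases (21.3%, 12.0 to 34.9%), against 203 of 2408 other long and antisense genes (8.43%, 7.39 to 9.61%). The difference was 12.8 points (3.49 to 26.5). Of the 10, 8 hold microRNAs and 2 hold snoRNAs. CR31044 with mir-279 and mir-996 was the strongest, as given above; mir-279 is known for limiting the number of CO2-sensing neurons. lncRNA:CR43626, which holds mir-282, had 4 ncRNA start-site peaks, the most of any ncRNA gene, with IDR-list signals of 894, 563, 191 and 157. Its strongest peak (chr3L:3248906-3249103) had 423 in replicate 2 and 325 in replicate 3, in regions that the overlapping weakest of the 4 shares. lncRNA:CR46006, the host of mir-276a, had 291 and 295 in replicates 2 and 3. lncRNA:CR43650, which holds mir-8, the fly member of the miR-200 family, had 140 and 148. lncRNA:CR43857, the host of mir-275, had 112 and 108. Weaker hosts were asRNA:CR46194 with the mir-281 pair (131 in replicate 2 and 96.6 in replicate 3) and lncRNA:CR42651 (55.2 and 55.3), which holds mir-10 in the Antennapedia complex. The snoRNA hosts were Uhg4, with 7 snoRNA genes and a signal of 186 and 177, and Uhg1, described above.

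At 11 peaks the nearest ncRNA entry was itself a microRNA. The strongest lay at mir-9377 (326 in replicate 2 and 311 in replicate 3). Summits also lay at the precursors mir-2491 (186 and 215), mir-275 (111 and 163), mir-276a (64.4 and 53.1) and mir-279 (41.7 and 70.0), and 431 bp from the mature entry of bantam (105 and 116), a microRNA that promotes growth and blocks cell death. For microRNAs the annotated start is that of the cut precursor, not of transcription. These peaks at mir-276a and mir-279 had IDR-list signals of 128 and 118, below the 584 and 1860 at the starts of their host transcripts, while the peak at mir-275 had 274, above the 202 at the start of its host.

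Of 25 ncRNA genes with a known role that were matched in the annotation, 5 had an ncRNA start-site peak, against 7.45% of all annotated ncRNA genes and 9.94% of long ncRNA genes. They came from 39 symbols, a list that also held names of protein-coding genes and 1 gene under a second spelling. lncRNA:Hsromega, the heat shock RNA of the omega speckles, had 134 in replicate 2 and 130 in replicate 3. lncRNA:flam, the piRNA cluster that silences gypsy-type transposons in follicle cells, had 71.4 and 74.9. lncRNA:roX1, an RNA of the male dosage compensation complex, had 61.3 and 43.4 and an IDR-list signal of 101.2, the lowest but one of the 235. Uhg1 and Uhg4 were the others. They and Hsromega, which holds mir-4951, are also among the host genes above, so this count is not separate from that of the hosts. With 25 genes, no difference from the shares of all annotated or long ncRNA genes is read from it. Uhg8 was reached by 2 peaks that also lay at a protein-coding start. The remaining 19 had no IDR summit within 500 bp of an annotated start: roX2, noe, cherub, iab8, iab4, bxd, let7C, acal, sphinx, yar, CRG, Uhg2, Uhg3, Uhg5, Uhg7, RNaseMRP, RNaseP, Vinr and dntRL. Summits elsewhere along these genes were not counted. The nearest to the limit was let7C, the let-7 complex, whose RNAs appear at metamorphosis: a summit with a signal of 160 in replicate 2 and 202 in replicate 3 lay 577 bp from its start.

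Besides CR43626, the genes with most ncRNA start-site peaks were asRNA:CR33945 with 3 and 17 genes with 2. The 3 strongest of those with 2 were lncRNA:CR45251, lncRNA:CR44276 and lncRNA:CR45640, whose stronger peaks had signals of 691, 579 and 491. At some genes with 2 peaks the summits lay close together, 203 bp apart at CR44526 and 205 bp apart at CR45157. Of the 235, 74 had another of the 235 within 5000 bp, in 32 groups. The same share was not computed over the whole list, so no grouping particular to these peaks is read from it. The largest group held 5 peaks over 5073 bp at CR45424 and CR43626 (signals of 157 to 894), and a group of 4 lay at CR45640, CR45639 and CR45642 on 3R (133 to 491).

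The hexamer CAGTGC was held within 100 bp of the summit by 52 of the 235 peaks (22.1%, 17.3 to 27.9%), against 47 of 470 windows of the same size centred 500 bp to either side. It was held by 13.5% of peaks at protein-coding starts (difference 8.67 points, 3.63 to 14.6) and by 19.9% of peaks at neither start (difference 2.26 points, -2.69 to 8.08). Of windows of this size centred on all 2617 long and antisense ncRNA starts, 11.2% held it. The share was 20.3% in the strongest 79 of the peaks, 24.4% in the middle 78 and 21.8% in the weakest 78. The median signal was 207 with the hexamer and 215 without. The 5 strongest peaks that hold it were those at CR44619, CR44091, CR44478, CR46006 and CR42794, with IDR-list signals of 2277, 610, 598, 584 and 495.

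CAGTGC is not a palindrome, so each site has a direction, and the summits lay to one side of it. Within 150 bp of the 235 summits there were 97 sites at 74 peaks, and at 77 of the 97 (79.4%, 70.3 to 86.2%) the summit lay on the 5′ side of the hexamer, read on the strand that spells CAGTGC. The median position of the summit was -65.5 bp from the middle of the hexamer, negative being the 5′ side, and at 60 of the 97 sites it lay 40 to 120 bp on that side. In windows of the same size 1000 bp away from the same summits, 35 of 71 sites (49.3%) had the window centre on the 5′ side, a difference of 30.1 points (15.5 to 43.3). Peak by peak, every site faced this way at 56 of the 74 peaks, every site the other way at 12, and 6 peaks had both kinds.

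**Figure D5:**
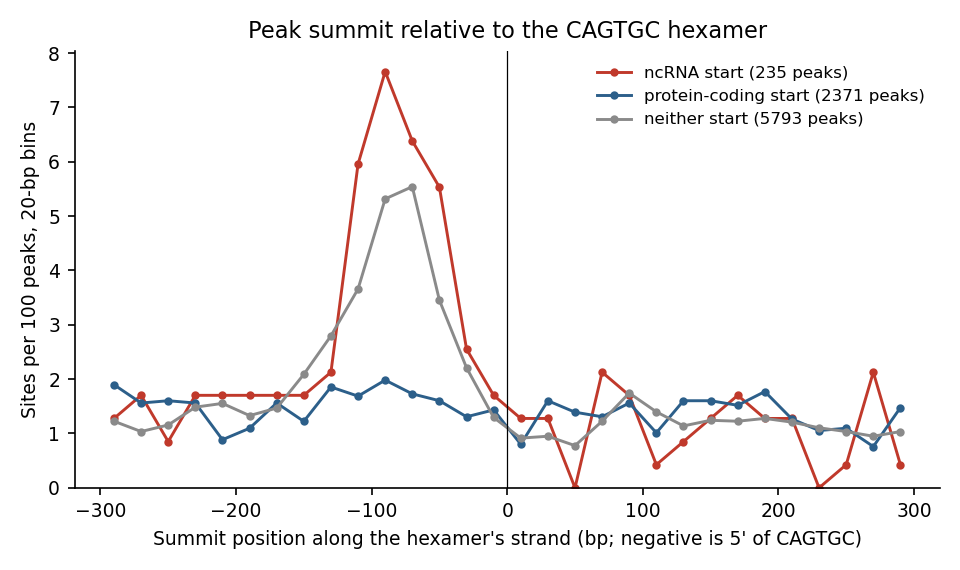
Number of CAGTGC sites per 100 peaks (vertical axis, 20-bp bins) by where the summit lay along the strand of the hexamer (horizontal axis, bp, negative being 5′ of CAGTGC), for peaks at ncRNA starts, protein-coding starts and neither. ncRNA start-site peaks and peaks at neither start have a hump with the summit about 40 to 120 bp 5′ of the hexamer. The line of protein-coding start peaks stays between 0.759 and 1.98 sites per 100 peaks.

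The same side was seen at peaks at neither start, where the summit lay 5′ of 1454 of 1952 sites (74.5%; difference of the ncRNA start-site peaks from them 4.89 points, -4.39 to 12.0) with the same median of -65.5 bp. At protein-coding starts it lay 5′ of 283 of 518 sites (54.6%, 50.3 to 58.9%), a weaker lean to the same side. In windows 1000 bp upstream and downstream of these summits on the reference, the shares were 47.3% and 48.1%. The difference of the ncRNA start-site peaks from those at protein-coding starts was 24.7 points (14.7 to 32.8). In this the ncRNA start-site peaks were like the peaks away from any start. The bases around the hexamer were uneven too. At the 97 sites the 10 bases before CAGTGC were 48.9% T, with 71.1% T at the sixth base before it, and the base after it was A at 74.2% of sites. At protein-coding start peaks these 10 bases were 34.7% T and the next base was A at 39.7% of sites. Peaks at neither start were nearer, with 46.2% T before the hexamer and A after it at 64.8% of sites. Farther out, 10 to 60 bp from the hexamer, the sequence was 65.9% A or T on the 5′ side, where the summits lay, and 54.3% on the 3′ side.

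The 8 strongest ncRNA start-site peaks with a site within 150 bp are printed below, leaving out 1 chromosome arm, to show the T-rich run before the hexamer and the A after it. They were chosen after their values were seen. Each is 86 bases of the dm6 reference, read on the strand that spells CAGTGC, with 60 bases before and 20 after the hexamer, which is in capitals.
CR44619 (chrX:12752337-12752422, plus strand): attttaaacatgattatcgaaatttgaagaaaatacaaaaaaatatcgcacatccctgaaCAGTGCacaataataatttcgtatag
CR44676 (chr3L:19560847-19560932, plus strand): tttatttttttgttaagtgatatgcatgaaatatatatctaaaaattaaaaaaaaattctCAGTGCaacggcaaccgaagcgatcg
CR45668 (chrX:5900060-5900145, minus strand): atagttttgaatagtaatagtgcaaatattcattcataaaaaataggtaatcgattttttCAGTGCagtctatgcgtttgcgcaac
mir-9377 entry (chrX:12665661-12665746, plus strand): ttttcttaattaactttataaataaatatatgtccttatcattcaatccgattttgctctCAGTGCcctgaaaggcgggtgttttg
CR45908 (chr3R:7075747-7075832, minus strand): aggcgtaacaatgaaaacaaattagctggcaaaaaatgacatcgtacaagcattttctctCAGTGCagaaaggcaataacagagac
CR44091 (chr3R:31680873-31680958, minus strand): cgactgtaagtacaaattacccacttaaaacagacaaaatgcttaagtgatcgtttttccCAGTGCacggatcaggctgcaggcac
CR44478 (chr2L:18145491-18145576, plus strand): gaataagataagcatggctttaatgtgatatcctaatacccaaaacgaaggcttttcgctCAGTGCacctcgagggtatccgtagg
CR46006 (chr3L:10331969-10332054, plus strand): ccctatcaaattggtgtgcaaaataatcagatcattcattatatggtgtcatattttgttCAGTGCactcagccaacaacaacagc

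In these 8 the summit lay 5′ of the hexamer in every case, by between 37.5 and 138.5 bp, 3 or more T in a row stood within the 10 bases before it in 6 of the 8, and an A followed it in 7. CR45325, which is stronger than 5 of the 8 and is not printed, had its summit 111.5 bp 5′ of a site. The 8 are not a measure of how common this side was, which the 56 of 74 peaks above give.

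The other motifs set these peaks apart from protein-coding starts by what was rare. TATCGATA, the element bound by DREF, the DNA replication-related element factor, was held by 1 of the 235 summit windows (0.426%, 0.0752 to 2.37%), that of lncRNA:CR43838 (57.8 in replicate 2 and 82.8 in replicate 3), against 122 of 2371 at protein-coding starts (5.15%; difference -4.72 points, -5.75 to -2.61). The shorter CGATA, the BEAF-32 core, whose letters lie within TATCGATA, was held by 16.2% against 32.5% (difference -16.3 points, -20.9 to -10.7). GGTCACA, the core of Ohler motif 1, was held by 1 window against 2.70%, a difference whose interval reached 0 within 250 bp, within 1000 bp and among the 4199 strongest peaks. CAGCTG was held by 4.68% against 9.07%, with an interval that reached 0 among the 4199 strongest peaks and with replicate 2 alone. TATAAA, the TATA box, was held by 94 of the 235 ncRNA start-site peaks and by 42.3% of peaks at protein-coding starts, a difference of -2.26 points (-8.64 to 4.41) that was not resolved at these numbers, and by 21.3% of the flanking windows of the ncRNA start-site peaks. TCAGT, the initiator core, which shares letters with CAGTGC where a T precedes it, was held by 40.4% against 31.6% (difference 8.79 points, 2.43 to 15.4; with replicate 2 alone 5.92 points, -0.408 to 12.6). TGANTCA, the AP-1 site, was held by 6.81% against 3.67% (difference 3.14 points, 0.433 to 7.16), but the interval reached 0 within 250 bp, with each replicate alone and among the 4199 strongest peaks, where the difference was 0.800 points (-1.88 to 5.86). Against peaks at neither start, the intervals of the difference included 0 for all 15 motifs searched. A match is a match of letters on either strand and does not show what was bound.

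The summits were poor in G and C. Within 100 bp of the summit the 235 peaks averaged 34.0 ± 6.43% GC, against 43.6 ± 6.31% in the flanking windows (SD over peaks), a difference of -9.62 ± 9.29 points. The same difference was -11.5 points at protein-coding starts and -9.68 points at neither start. At 35 of the 235 (14.9%) the summit was not lower in GC than its flanks. A run of 7 bases A on either strand was held by 30.2% of summit windows against 17.2% of flanks and 23.0% of flanks 1000 bp away. At peaks at neither start the run was held by 29.5% of summit windows against 19.8% of flanks. Such runs and the TATA box are themselves made of A and T, and their shares move with the base composition. GCCAT, the Pho core, was held by 47 of the 235 summit windows against 184 of 470 flanking windows. Of flanks 1000 bp away 31.5% held it. At peaks at neither start it was held by 23.8% of summit windows against 37.1% of flanks.

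The limits of the choice are arbitrary in base pairs. Just inside 500 bp of an ncRNA start were peaks at CR43485 (500 bp; IDR-list signal 110), CR44775 (497 bp; 209) and CR45564 (496 bp; 154), and just outside were peaks at CR45973 (503 bp; 280), CR45352 (506 bp; 160) and CR44667 (511 bp; 115). Just far enough from a protein-coding start were those at CR45480 (521 bp; signal 120), CR44743 (525 bp, from vri; 402) and Uhg4 (528 bp; 355), and just too near were those at CR44655 (489 bp; 226), asRNA:CR43243 (486 bp; 370) and CR45233 (472 bp; 136). ncRNA starts were also met below the reproducible list. Of the next 8399 regions of the merged list by signal, none of which overlapped an IDR peak, 210 met the same rule.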

How the data were processed

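Peaks were read from the deposited dm6 lists of 2 ChIP-seq replicates of CG10631-GFP white prepupae: an IDR list of 8399 peaks, a merged list and a list per replicate, each of 30000 regions. The authors made the lists from alignments and a control, per the file list supplied with the samples. Which aligner, peak caller, filters and IDR cutoff were used is not given in the sources used here. Each region carries a signal, given by the authors as its strength, and a q-value that the authors deposited as −log10 of q and that is not used for any result. A strength is comparable within its own list. The lists give no read counts, so the depth behind a value is unknown.

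From there, starts and gene classes were taken from the Ensembl release 115 annotation (BDGP6.54), on the build of the lists, and bases from the RefSeq dm6 genome, with Python 3.11.15, numpy 2.4.6 and pandas 2.3.3. Coordinates are 1-based. Each IDR peak was given the signal of the overlapping region (1 bp or more) with the nearest summit in each replicate list. Intervals on shares are Wilson and on differences Newcombe, both at 95%, and cover counting error only. No test between conditions was possible with 1 group. Functions were tested on simulated summits and sequences. For the 15 motifs, both strands of the 100 bp to either side of a summit were read.

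The peaks and the lists of motifs and genes were chosen with earlier results of these data known, among them the hexamer CAGTGC; its direction was examined after its values were seen. Genes named are the 20 strongest peaks, ncRNA genes of known role bound or not, the 5 genes with the most peaks, the strongest per arm, the 5 largest replicate differences, the edges of both limits, hosts, and holders of TATCGATA and CAGTGC. Alternatives tried were 250 bp and 1000 bp limits, the stronger 4199 peaks of the list, each replicate alone, other windows, flanks, overlaps and folds.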

Additional observations from a re-analysis of the deposited data

How the results depend on the processing

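With either replicate alone, taking its 8399 strongest regions, between 230 and 231 peaks met the rule and between 59.6% and 60.6% of summits lay upstream; the ratio of the median signal to that of the whole list lay between 1.14 and 1.15, against 1.12 in the IDR list, and the GC difference between -10.3 and -9.50 points. Within 250 bp of a start the values were 147 peaks, 4.68% of ncRNA genes, a signal ratio of 1.16, 70.1% upstream and -8.91 points of GC; within 1000 bp they were 376 peaks, 11.2%, 1.10, 50.8% and -10.4 points. The 4199 strongest peaks of the list gave 133 peaks, 4.41% of ncRNA genes, a ratio of 1.03, -10.9 points of GC, 99.2% among the strongest regions of both replicates and 5.30% past 1.5-fold. Requiring that no protein-coding start lie within 2000 bp left 156 peaks. With 50% reciprocal overlap 79.6% were among the strongest regions of both replicates, and 2.56% differed by more than 2-fold. GC differences were -11.9 points within 50 bp of the summit and -6.86 points against flanks 1000 bp away. CAGTGC was held by 7.66% of windows within 50 bp and, in a window added after seeing the data, by 31.5% within 150 bp. The causes of these moves were not tested, beyond the fewer or wider windows that the settings themselves impose. Counts, shares and signal ratios have no sign, so a reversal could be seen only in differences. The GC difference stayed negative in every setting, between -11.9 and -6.86 points. In all 145 values were recomputed, of which 44 moved beyond their spread, some of them single motifs. This spread was 1.5-fold for the number of peaks and the Wilson interval for shares. For a difference of shares it was the Newcombe interval, and for signal and GC the SD between the replicate lists. The lower upstream share, the higher CAGTGC share and the lower CGATA share than at protein-coding starts kept an interval that excluded 0 in each of the 250 bp, 1000 bp, 4199-peak and single-replicate settings. The interval reached 0 for the X chromosome at 250 bp and among the 4199 strongest peaks, for the share outside protein-coding genes at 250 bp (6.05 points, -2.20 to 13.4), and for the initiator, AP-1, CAGCTG and Ohler motif 1 letters under the settings given with them. The difference was -3.41 points (-6.28 to 1.74) for CAGCTG among the 4199 strongest peaks, and -2.80 points (-3.95 to 0.367) for Ohler motif 1 at 250 bp. No paired analysis was possible because there is 1 group. Without read counts, it cannot be said which weak peaks depth limits.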

Other observations

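Read by region and not by rule, some ncRNA start-site peaks stood beside protein-coding genes of known function without touching their starts. The peak at lncRNA:CR44743 had its summit 525 bp from a start of vri, which encodes a repressor of the circadian clock. Its signal was 194 in replicate 2 and 217 in replicate 3. The peak at a stable intronic RNA, sisRNA:4, had its summit within dpn, a neural stem cell transcription factor gene. This peak had 234.7 in replicate 2 and 234.8 in replicate 3, with a CAGTGC 81.5 bp from the summit. The summit at lncRNA:CR44478 lay within Socs36E, which encodes an inhibitor of JAK/STAT signalling. That peak had 294 and 302 in replicates 2 and 3 and a CAGTGC 73.5 bp from the summit. These 3 were chosen after their values were seen.

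Over the whole IDR list, the summit lay on the 5′ side of 1814 of 2567 CAGTGC sites within 150 bp (70.7%, 68.9 to 72.4%), against 1297 of 2612 (49.7%) in windows centred 1000 bp away. The base after the hexamer was A at 60.2% of sites at all summits and at 38.4% of sites 1000 bp away. This was examined after the hexamer had been seen in these data.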
